A study of Homo sapiens with 6 samples.

Results

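Small leucine-rich proteoglycans are secreted proteins of the extracellular matrix, and 9 of their genes are described here in Hep3B cells. The 9 genes, BGN, DCN, LUM, FMOD, ASPN, PRELP, OGN, OMD and EPYC, were taken by their symbols from the 23228 genes of the count tables. They were chosen with the difference between the groups known, so their levels and fold changes are given as a description, without a test. Hep3B is an established human hepatocellular carcinoma (HCC) cell line, grown in culture. RNA was sequenced in 3 libraries of control cells, which carried a non-targeting shRNA. A further 3 libraries, labelled PELP1-KD, came from cells with an shRNA against PELP1. PELP1 is a coregulator of nuclear receptors, and the comparison asked how the transcriptome differs when it is reduced. An shRNA (short hairpin RNA) makes the cell's own machinery break down a matching mRNA, and here both groups received theirs by lentivirus. The PELP1-KD cells were selected with puromycin and kept as pools of stable clones. The library names give the first PELP1 shRNA, whereas the protocol gives both, so which of them the cells carried is uncertain. The sources also disagree about the extraction kit, about read pairing, and about selection of mRNA against removal of ribosomal RNA. Nothing in the labels says that replicates came from separate cultures, so p-values measure the spread between these libraries, which may be technical.

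The core protein of a small leucine-rich proteoglycan is a curved stack of leucine-rich repeats, which binds collagen and helps set the width and spacing of collagen fibrils. Biglycan (BGN), decorin (DCN) and asporin (ASPN) form class I, and biglycan and decorin carry chondroitin or dermatan sulfate chains. Lumican (LUM), fibromodulin (FMOD), PRELP and osteomodulin (OMD) belong to class II, several of which carry keratan sulfate. Osteoglycin (OGN) and epiphycan (EPYC) belong to class III. In liver these genes are known mostly from stellate cells and fibroblasts, which lay down the collagen of a scar, and soluble biglycan and decorin also bind cell surface receptors and growth factors of the TGF-β family.

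Library depth ranged from 26758180 to 34456393 reads on genes. PELP1 itself lies on the minus strand of chromosome 17 from 4574679 to 4607632 (hg19, as are all gene positions here). Control libraries held 5338, 5127 and 5348 reads of it, against 4318, 4135 and 4846 under the label PELP1-KD. Scaled for library size, these came to 4970 ± 115 normalized reads (SD, n = 3) and 4695 ± 238 (SD, n = 3), or 94.5% of control. The difference did not pass the test across all genes (log2 fold change −0.08, SE 0.04, adjusted p = 0.101 by edgeR's quasi-likelihood test). It passed with the replicate number as a block (adjusted p = 0.0106) and without PELP1-KD replicate 3 (log2 fold change −0.10, adjusted p = 0.018). The exact two-sided permutation test gave p = 0.1, which is the smallest that 3 against 3 libraries allow. The paper reports lower PELP1 protein by Western blotting in Hep3B cells with either shRNA, and protein was not measured here. The libraries are therefore called by their label throughout.

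The promoters of BGN and FMOD are shown because, of the 3 genes that passed the filter on low counts, these had the largest fold changes, in opposite directions. They are the 250 bases before the start site as RefSeq gives it for GRCh38.p14, on the strand of the gene, written 5′ to 3′. Capitals mark the GC box GGGCGG, a binding motif of SP1-type factors, and the TATA motif TATAAA, each on either strand. The BGN promoter is chrX:153494730-153494979, plus strand, and the FMOD promoter is chr1:203351123-203351372, minus strand.
BGN: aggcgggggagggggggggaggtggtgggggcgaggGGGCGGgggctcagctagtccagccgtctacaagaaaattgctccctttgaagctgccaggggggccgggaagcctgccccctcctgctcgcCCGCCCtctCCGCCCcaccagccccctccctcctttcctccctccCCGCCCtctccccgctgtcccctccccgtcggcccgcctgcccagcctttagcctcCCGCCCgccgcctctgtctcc
FMOD: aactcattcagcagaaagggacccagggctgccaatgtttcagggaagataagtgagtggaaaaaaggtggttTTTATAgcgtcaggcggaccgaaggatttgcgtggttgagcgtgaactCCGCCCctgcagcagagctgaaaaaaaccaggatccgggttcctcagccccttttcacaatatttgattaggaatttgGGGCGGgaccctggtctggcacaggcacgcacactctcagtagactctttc
The BGN promoter held 5 GC boxes and no TATAAA, with a GC content of 74% and 16 CpG dinucleotides. The FMOD promoter held 2 GC boxes, 1 TATAAA on the opposite strand and 1 CCAAT, with a GC content of 51.6% and 9 CpG dinucleotides. Of 27305 promoters of the same length, 42.3% held a GC box, 11.1% a TATAAA and 33.0% a CCAAT on either strand, and the median GC content was 58.0% with a median of 11 CpG dinucleotides. BGN thus has the more GC-rich and CpG-rich of the shown promoters, above the median, and FMOD lies below it. RefSeq promoters were matched for 6 of the 9 genes, not for DCN, LUM or OMD.

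Of the 9 genes, 5 had a read in any library and 3 passed the filter on low counts (BGN, LUM and FMOD). Each of these 3 differed between the groups without overlap, BGN being lower and LUM and FMOD higher in the libraries labelled PELP1-KD. Among all 14537 tested genes, 29.5% were higher without overlap and 29.3% lower without overlap, and the genes were chosen from this contrast, so nothing is read from that count. All 54 values of the 9 genes were whole numbers of reads, and none of their exon bases are shared with another gene of the tables on the same strand.

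**Figure D1:**
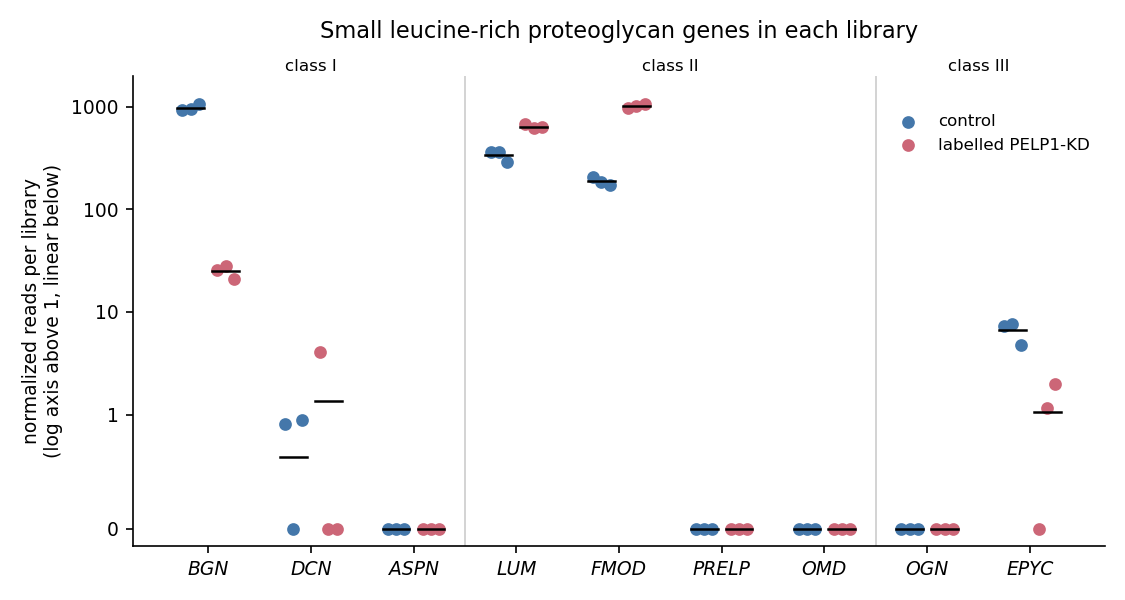
The vertical axis gives the normalized reads (log scale above 1, linear below) of each of the 9 genes in each of the 6 libraries, with the group mean as a bar and the genes ordered by class. The mean of BGN is 977 in control and 24.9 in PELP1-KD, that of FMOD 188 and 1009 and that of LUM 339 and 640.3, while 4 genes lie at 0 in every library.

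BGN, of class I, lies on the plus strand of chromosome X from 152760347 to 152775004, with 8 exons in the tables. Control libraries held 1015, 986 and 1105 BGN reads, against 25, 24 and 21 in PELP1-KD. Every control library thus lay far above every PELP1-KD library, and within each group the 3 libraries were close to each other. Normalized reads were 977 ± 67.6 (SD, n = 3) in control and 24.9 ± 3.57 (SD, n = 3) in PELP1-KD, which is 2.55% of control. The log2 fold change was −5.30 (SE 0.11), or 39.3-fold lower. This SE comes from the test statistic and is too small here, below the counting error of the 70 PELP1-KD reads. From the pooled reads, 3106 against 70, the ratio of control to PELP1-KD was 39.5, with a 95% exact binomial interval from 31.2 to 50.8 that covers counting error only. With 70 reads in all, the depth of the PELP1-KD libraries set the precision of this ratio. In bulk RNA, fewer cells that make a transcript and less of it per cell cannot be told apart.

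FMOD, of class II, lies on the minus strand of chromosome 1 from 203309752 to 203320289, with 3 exons. Control libraries held 227, 193 and 180 FMOD reads, against 941, 868 and 1051 in PELP1-KD. The groups did not overlap, and the highest control library lay well below the lowest PELP1-KD library. Normalized reads were 188 ± 18.4 (SD, n = 3) in control and 1009 ± 43.3 (SD, n = 3) in PELP1-KD. The log2 fold change was 2.42 (SE 0.08), or 5.36-fold higher.

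LUM, also of class II, lies on the minus strand of chromosome 12 from 91497232 to 91505542, with 3 exons. Control libraries held 397, 379 and 305 LUM reads, against 656, 533 and 628 in PELP1-KD. The groups did not overlap, and control replicate 3 lay below the other control libraries. Normalized reads were 339 ± 41.9 (SD, n = 3) in control and 640.3 ± 27.3 (SD, n = 3) in PELP1-KD. The log2 fold change was 0.92 (SE 0.08), or 1.89-fold higher, the smallest of the 3 genes among the 9 that passed the filter.

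EPYC and DCN, which flank LUM on chromosome 12, were at the edge of detection. EPYC, a class III gene known from cartilage, lies from 91357456 to 91398803 on the minus strand, and had 8, 8 and 5 reads in control and 0, 1 and 2 reads in PELP1-KD. Its groups did not overlap, but it failed the filter on low counts, and every library held fewer than 10 reads. The ratio of control to PELP1-KD was 6.24, with a 95% counting interval from 1.86 to 32.6. DCN, of class I, lies from 91539035 to 91576806 on the minus strand, and had 1, 0 and 1 reads in control and 4, 0 and 0 reads in PELP1-KD. Its groups overlapped, and the ratio of PELP1-KD to control of 2.25 had an interval from 0.322 to 24.8, so no difference was detectable at this depth.

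The other 4 genes had 0 reads in all 6 libraries. ASPN, OMD and OGN, of classes I, II and III, lie in a row on the minus strand of chromosome 9, and PRELP, of class II, lies on the plus strand of chromosome 1. A count of 0 allows up to 3 reads, which is 0.0347 to 0.0441 RPKM for ASPN over the libraries, 0.0344 to 0.0438 RPKM for OMD, 0.0285 to 0.0363 RPKM for OGN and 0.015 to 0.0191 RPKM for PRELP. These limits lie below the level of BGN in every PELP1-KD library (0.273 to 0.365 RPKM).

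Genes of the family that lie beside each other stood at different levels on chromosomes 1 and 12. LUM, with at least 305 reads in a library, lies 33.5 kb from DCN, with at most 4 reads in a library, and 98.4 kb from EPYC. FMOD, at 10.7 RPKM in PELP1-KD, lies 125 kb from PRELP, which had no read. ASPN and OMD lie 31.7 kb apart, OMD and OGN 9.59 kb apart, and all 3 were without a read.

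Levels can be compared between genes only per length, and for this the reads were expressed as RPKM (reads per kilobase of exon per 1e+06 reads). In control libraries the order was BGN at 12.7 ± 0.88 RPKM (SD, n = 3), LUM at 5.10 ± 0.63, FMOD at 2.01 ± 0.196 and EPYC at 0.136 ± 0.0328. No neighbours in this order overlapped in their libraries: the lowest BGN value was 12.1, LUM ran from 4.38 to 5.47 and FMOD from 1.83 to 2.22 RPKM. In PELP1-KD the order was FMOD at 10.7 ± 0.462, LUM at 9.63 ± 0.41 and BGN at 0.324 ± 0.0465 RPKM, with EPYC and DCN lower still. FMOD and LUM were close: FMOD had 10.3, 10.8 and 11.2 RPKM and LUM had 10.1, 9.35 and 9.43 RPKM in the same libraries, a ratio of 1.02, 1.15 and 1.19. Among the tested genes ranked by RPKM, BGN went from percentile 61.6 in control to 8.42 in PELP1-KD, LUM from 40.4 to 54.9 and FMOD from 25.2 to 57.6.

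Per length, the summed level of the 9 genes differed little in size, while its makeup differed widely. The RPKM of the 9 genes summed to 19.97, 19.90 and 20.04 in the control libraries and to 20.8, 20.5 and 20.9 in the PELP1-KD libraries, so that the PELP1-KD mean was 104% of the control mean, with no overlap between the groups. BGN made up 63.7% ± 4.21 (SD, n = 3) of the sum in control and 1.56% ± 0.239 in PELP1-KD. LUM made up 25.6% ± 3.23 in control and 46.4% ± 1.96 in PELP1-KD. FMOD made up 10.05% ± 0.995 in control and 51.8% ± 2.08 in PELP1-KD. Over these 9 genes alone, the largest share by RPKM thus lay with class I in control and with class II in PELP1-KD. Summed as normalized reads, without regard to length, the 9 genes held 1511 ± 10.8 in control and 1676 ± 20.6 in PELP1-KD (SD, n = 3). BGN was 6.40 ± 1.03 times FMOD per length in control, and FMOD was 33.8 ± 6.24 times BGN in PELP1-KD. These sums describe RNA, and the protein and its chains were not measured in these tables.

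**Figure D2:**
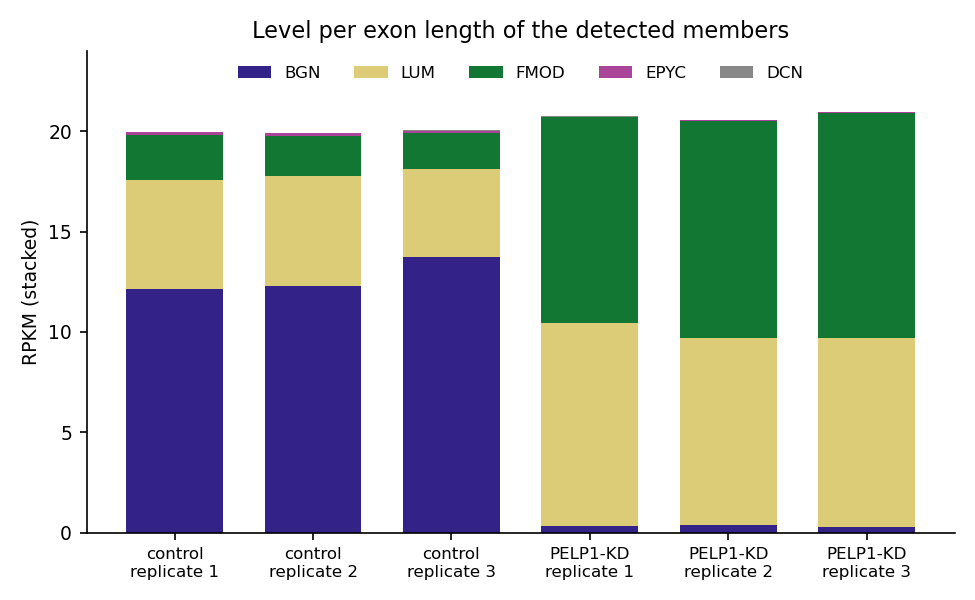
Stacked bars give the RPKM of the 5 genes of the family with a read in each of the 6 libraries. The bars are of nearly equal height, with sums between 19.9 and 20.9 RPKM, but BGN fills most of each control bar and FMOD and LUM fill nearly all of each PELP1-KD bar.

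Related genes were described by lists, with calls at an adjusted p below 0.05 in edgeR. By that rule 26.8% of all 14537 tested genes were higher and 26.8% lower in PELP1-KD, and with a change of at least 2-fold 2.85% were higher and 4.79% lower. The median log2 fold change over all tested genes was 0.0044. The lists were drawn up with earlier results of these data known, and no list was tested as a set.

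Of 9 further genes of the family, 4 were tested, with 1 higher and 1 lower and a median log2 fold change of 0.18. TSKU (tsukushi, of class IV, a secreted inhibitor of several growth factor pathways) was the best expressed, at 40.7 ± 2.01 RPKM (SD, n = 3) in control and 44.0 ± 1.92 in PELP1-KD, above the sum of the 9 genes in both groups. Its log2 fold change was 0.11 (SE 0.04, adjusted p = 0.0422 by edgeR), and this call was lost under DESeq2 (adjusted p = 0.0715) and without control replicate 1 (0.238), control replicate 2 (0.0794), PELP1-KD replicate 2 (0.104) or PELP1-KD replicate 3 (0.0984). CHADL, a class IV chondroadherin-like gene, fell from 22.4 ± 6.38 to 10.1 ± 5.09 normalized reads (SD, n = 3), a call lost under DESeq2 (adjusted p = 0.0579), without control replicate 3 (0.0897) and without PELP1-KD replicate 3 (0.076). ECM2, which lies 10.985 kb from ASPN on chromosome 9, had 105 ± 17.8 and 124 ± 5.66 normalized reads (log2 fold change 0.25, SE 0.14, adjusted p = 0.15 by edgeR). PODN, of class V, had 124 ± 22.4 and 147 ± 10.7 normalized reads and did not pass (adjusted p = 0.134 by edgeR, and 0.0286 without control replicate 1). NYX, CHAD and PODNL1 failed the filter, and KERA and OPTC had no read.

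The chondroitin, dermatan and keratan sulfate chains of proteoglycans are built by enzymes of the Golgi. For chain synthesis and the supply of its precursors together, 37 genes were listed and 32 tested. Of these, 10 rose and 13 fell, 3 and 2 of them at least 2-fold, with a median log2 fold change of −0.01. Genes thus changed in both directions within the list.

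Xylosyltransferases start the chondroitin and dermatan sulfate chains on the core protein, whereas keratan sulfate is attached through other sugars. XYLT1 rose from 4.74 ± 3.33 to 35.7 ± 2.40 normalized reads (SD, n = 3; log2 fold change 2.89, SE 0.37, adjusted p = 2.07e-06 by edgeR), and its log2 fold change was 3.61 without control replicate 3. The other xylosyltransferase gene, XYLT2, was better expressed and rose less, from 1021 ± 67.1 to 1206 ± 32.4 (log2 fold change 0.24, SE 0.06). Of the enzymes that complete the linker, B3GALT6 fell (log2 fold change −0.32, SE 0.05), and so did FAM20B, a kinase acting on the linker xylose (−0.37, SE 0.05). In all, 3 of 7 linker genes rose and 2 fell. Of 6 genes of chain elongation, 1 rose and 2 fell, among them CHSY1, a chondroitin synthase, from 846 ± 9.43 to 544 ± 20.4 normalized reads (log2 fold change −0.64, SE 0.06).

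Dermatan sulfate epimerases turn chondroitin into dermatan sulfate, the chain type of biglycan and decorin in many tissues, and their pair of genes went opposite ways. DSE fell from 645 ± 37.4 to 214 ± 12.0 normalized reads (SD, n = 3; log2 fold change −1.59, SE 0.08, adjusted p = 1.65e-12 by edgeR). DSEL rose from 484 ± 35.97 to 734 ± 7.76 (log2 fold change 0.60, SE 0.07, adjusted p = 3.09e-07 by edgeR). Per length, DSE stood above DSEL in control (4.91 against 1.66 RPKM) and below it in PELP1-KD (1.63 against 2.52 RPKM). CHST14, which sulfates dermatan, fell (log2 fold change −0.58, SE 0.08). Of the 7 tested chondroitin and dermatan sulfotransferases 2 rose and 5 fell. CHST3, a chondroitin 6-O-sulfotransferase, rose from 4406 ± 177 to 10263 ± 369 normalized reads (log2 fold change 1.22, SE 0.04, adjusted p = 2.11e-15 by edgeR), and CHST15 rose by less (0.45, SE 0.07). The 4-O-sulfotransferases CHST11 and CHST13 fell, with log2 fold changes of −1.32 (SE 0.25) and −0.34 (SE 0.04).

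Keratan sulfate is the chain of the class II genes LUM and FMOD. Of 7 listed keratan genes 3 were tested, and 2 rose. B3GNT7, which extends keratan sulfate, rose from 161 ± 9.01 to 346 ± 5.49 normalized reads (SD, n = 3; log2 fold change 1.10, SE 0.09, adjusted p = 2.49e-09 by edgeR), and B4GALT4, its galactosyltransferase partner, rose from 1877 ± 2.99 to 2605 ± 62.1 (0.47, SE 0.04). CHST6, a keratan sulfotransferase, had 232 ± 12.9 and 223 ± 9.34 normalized reads (−0.06, SE 0.09, adjusted p = 0.612 by edgeR). The keratan sulfotransferases CHST2 and CHST5 had at most 2 reads in a library, and CHST1 and CHST4, listed with them, had no read in any library. Of 7 genes that supply nucleotide sugars or activated sulfate 1 rose and 3 fell, among them UXS1, which makes UDP-xylose (−0.43, SE 0.04).

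**Figure D3:**
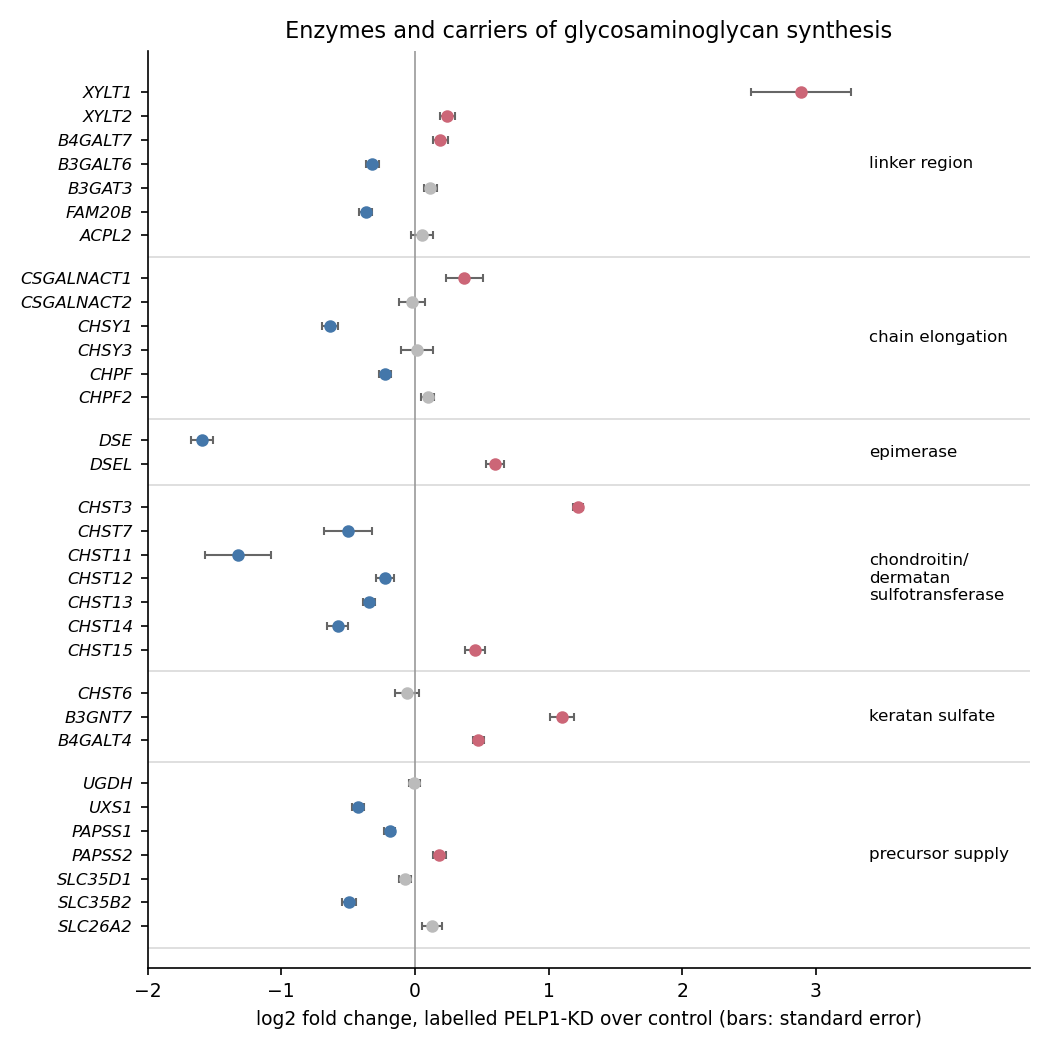
The horizontal axis gives the log2 fold change of each tested glycosaminoglycan synthesis gene, PELP1-KD over control, with its standard error, grouped by step, in red or blue where called higher or lower and in grey otherwise. DSE lies at −1.59 and DSEL at 0.60, CHST3 at 1.22 and CHST11 at −1.32, and B3GNT7 and B4GALT4 lie at 1.10 and 0.47.

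Of 30 genes for receptors and signaling partners, 22 were tested, of which 9 rose and 5 fell, 2 and 3 of them at least 2-fold (median log2 fold change 0.04). Soluble biglycan is known to act on TLR2 and TLR4 with the coreceptor CD14. TLR4 had no read in any library, TLR2 rose from 30.8 ± 4.26 to 54.7 ± 2.36 normalized reads (SD, n = 3; log2 fold change 0.83, SE 0.20, adjusted p = 0.0021 by edgeR), and CD14 fell from 176 ± 25.95 to 89.0 ± 1.76 (−0.98, SE 0.13). Of the adaptors, MYD88 rose (0.31, SE 0.05) and TICAM1 fell from 1137 ± 19.2 to 664 ± 43.4 (adjusted p = 9.08e-10 by edgeR). Of the inflammasome genes NLRP3 and the purinergic receptor P2RX7 had no read, CASP1 rose from 88.5 ± 20.7 to 369 ± 13.7 (2.06, SE 0.12) and its adaptor PYCARD fell from 26.7 ± 5.79 to 5.67 ± 1.59 (−2.22, SE 0.37). Of the 6 listed receptor tyrosine kinases, several of which decorin is known to bind, KDR (a receptor of VEGF) had no read, 5 were tested and 3 of these rose. EGFR rose from 5842 ± 140 to 8512 ± 117 normalized reads (0.54, SE 0.03, adjusted p = 7.97e-11 by edgeR), and ERBB2 rose as well (0.36, SE 0.04), while MET had a log2 fold change of 0.05 (SE 0.04) and an adjusted p of 0.266. INSR rose (0.50, SE 0.04), and so did the endocytic receptor LRP1 (0.52, SE 0.04) and the matrix receptor CD44 (569 ± 29.0 to 1805 ± 76.3 normalized reads, 1.67, SE 0.06). TGFB1, a growth factor that decorin, biglycan and fibromodulin bind, fell from 1858 ± 43.8 to 617 ± 56.7 (−1.59, SE 0.06, adjusted p = 2.06e-14 by edgeR). CTGF, a secreted matrix protein that decorin binds, fell from 5347 ± 74.3 to 2411 ± 79.7 (−1.15, SE 0.04).

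Of 20 genes for processing and cleaving proteases, their enhancers and inhibitors, 14 were tested, of which 4 rose and 6 fell, 1 and 3 of them at least 2-fold (median log2 fold change −0.08), and without control replicate 2 only 3 fell. BMP1 removes the propeptide of biglycan, and had 1121 ± 37.6 and 1162 ± 21.7 normalized reads (SD, n = 3; log2 fold change 0.05, SE 0.05, adjusted p = 0.394 by edgeR). Its relative TLL1 rose from 96.7 ± 5.45 to 329 ± 13.96 (1.77, SE 0.10, adjusted p = 1.29e-11 by edgeR), and PCOLCE2, which enhances collagen propeptide cleavage, fell from 882 ± 50.7 to 375 ± 26.1 (−1.24, SE 0.07). Among proteases that cleave matrix, MMP14 rose (0.49, SE 0.05), the cathepsin CTSS rose from 776 ± 18.1 to 1441 ± 33.6 (0.89, SE 0.05), and MMP2 had no read. ADAMTS9 fell from 353 ± 40.6 to 287 ± 16.9 (−0.30, SE 0.09), a call lost without control replicate 2 (adjusted p = 0.0776 by edgeR). The inhibitors differed among themselves: TIMP3 rose from 3339.7 ± 149 to 5683 ± 128 (0.77, SE 0.04) and TIMP1 fell from 49.4 ± 14.4 to 9.18 ± 0.175 (−2.42, SE 0.31). TIMP2 fell by 0.14 on the log2 scale, a call lost without control replicate 2 (adjusted p = 0.0571 by edgeR) and without PELP1-KD replicate 1 (0.0527).

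Of 27 genes for collagens and other partners in the fibril and matrix, 23 were tested, of which 12 rose and 6 fell, 3 and 1 of them at least 2-fold (median log2 fold change 0.21). The share called higher was above that of all tested genes, but the list was not tested as a set. COL2A1, the fibrillar collagen of cartilage, rose from 18881 ± 474 to 48949 ± 1799.6 normalized reads (SD, n = 3; log2 fold change 1.37, SE 0.03, adjusted p = 1.62e-17 by edgeR). COL1A1 rose from 81.3 ± 9.08 to 221 ± 5.80 (1.44, SE 0.12), and its partner COL1A2 rose less (0.51, SE 0.06). COL5A2 rose (0.19, SE 0.03), COL11A1 fell from 130 ± 12.9 to 61.7 ± 6.32 (−1.08, SE 0.15), and COL5A1 had no read. The list's 4 tested collagens of other kinds rose, which are COL12A1 (1.11, SE 0.05) and COL14A1 (0.90, SE 0.04), both of which sit on fibril surfaces, and COL6A1 (0.21, SE 0.05) and COL6A2 (0.59, SE 0.09), a network collagen that biglycan binds. Of 5 crosslinking genes none rose and 3 fell, among them LOX (−0.25, SE 0.05), which crosslinks collagen and is known to be guided by fibromodulin. Of 7 tested glycoproteins 4 rose and 2 fell. The adhesion protein FN1 (0.43, SE 0.03) and fibulin FBLN1 (0.59, SE 0.03) were higher, and THBS1 (11038 ± 163 to 7157 ± 103) and the basement membrane protein NID1 (15239 ± 81.9 to 9484 ± 174) were lower.

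Of 18 genes listed as other proteoglycans, link proteins among them, 11 were tested, of which 2 rose and 6 fell. By at least 2-fold, 1 rose and 4 fell, and the median log2 fold change was −0.36. VCAN (versican, a large matrix proteoglycan) rose from 380.2 ± 7.91 to 858 ± 64.3 normalized reads (SD, n = 3; log2 fold change 1.17, SE 0.07, adjusted p = 2.44e-11 by edgeR). TGFBR3 (betaglycan) was called at 0.14 (SE 0.06, adjusted p = 0.0447 by edgeR), a call lost under DESeq2 (adjusted p = 0.117), with at least 10 reads required in every library (0.0533), and without control replicate 1 (0.173), control replicate 3 (0.089), PELP1-KD replicate 1 (0.126) or PELP1-KD replicate 2 (0.145). PRG4 (lubricin) fell from 104 ± 9.79 to 5.32 ± 1.16 (−4.26, SE 0.26, adjusted p = 4.09e-11 by edgeR). SPOCK2 (testican, −1.80, SE 0.09), CSPG4 (−1.44, SE 0.15), CSPG5 (−0.90, SE 0.15) and the basement membrane collagen COL18A1 (−0.36, SE 0.04) fell as well. ACAN, SRGN and the link protein gene HAPLN1 had no read. The log2 fold change of BGN, −5.30, was larger in size than that of any proteoglycan named outside the family. BGN was chosen from this contrast, so nothing is read from that order.

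**Figure D4:**
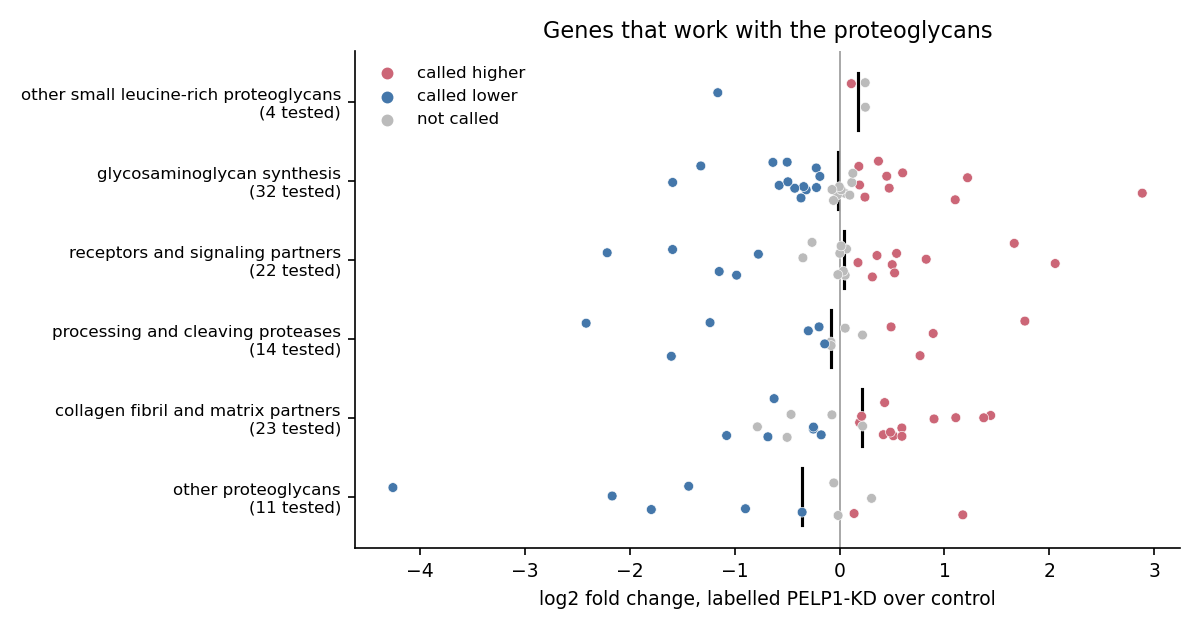
Each point is the log2 fold change, PELP1-KD over control, of 1 tested gene in 1 of the lists, with the list's median as a black bar, red and blue points for genes called higher and lower, and grey points for those not called. The medians lie between −0.36 for other proteoglycans and 0.21 for collagen fibril and matrix partners, and within each list genes lie on both sides of 0.

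Markers of other cell types were read in the same libraries, since these genes are known mostly from stellate cells and fibroblasts. Of 14 fibroblast and stellate cell markers 7 were tested, of which COL1A1 and COL1A2 rose and PDGFRB (−2.13, SE 0.16) and PDGFRA (−0.96, SE 0.14) fell. POSTN, THY1 and HAND2 had no read in any library. ACTA2 had at most 10 reads in a library, and FAP, DES and LRAT had at most 2. The 14 markers summed to 46.7 to 47.8 reads per 1e+06 (CPM) in control and 55.7 to 56.3 in PELP1-KD. Of 5 endothelial markers 1 was tested and not called, 3 had no read, and they summed to 2.00 to 2.32 CPM in control and 1.93 to 2.15 in PELP1-KD. Of 6 macrophage and leukocyte markers 2 were tested. CD68 rose from 1381 ± 76.5 to 1927 ± 71.8 normalized reads (SD, n = 3), and LYZ fell from 4264 ± 167 to 1458 ± 36.7. CD163 and AIF1 had no read, PTPRC had at most 5 reads in a library and TYROBP at most 2. The sums were 173 to 185 CPM in control and 107 to 109 in PELP1-KD, and of the 2 tested genes only LYZ fell. The 10 hepatocyte-like carcinoma markers, including ALB and AFP, were all tested, with 4 higher and 6 lower and sums of 28266 to 28584 CPM in control and 26851 to 26912 in PELP1-KD. Whether these differences bear on the levels of BGN, LUM and FMOD was not tested.

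Genes near the family were read to see whether a whole region moved. Within 500 kb of the 4 loci, 42 other genes were tested, of which 7 rose and 17 fell, beside 26.8% and 26.8% of all tested genes. By at least 2-fold, 2 rose and 3 fell, beside 2.85% and 4.79% of all tested genes. Their median log2 fold change was −0.06, and without control replicate 3 only 11 fell. Some that fell are not separate: TMEM183A and TMEM183B overlap and hold nearly the same reads, and ZBED6 lies within ZC3H11A. The neighbours were not tested as a set. At the BGN locus on chromosome X, 1 of 17 tested neighbours rose and 7 fell. The nearest, HAUS7, at 23.7 kb, had 377 ± 22.1 and 358 ± 8.999 normalized reads (SD, n = 3; log2 fold change −0.07, SE 0.08, adjusted p = 0.429 by edgeR). FAM58A, at 78.4 kb on the other side, had 482 ± 46.8 and 549 ± 44.3 (0.19, SE 0.08, adjusted p = 0.0509 by edgeR). It passed with the replicate number as a block (adjusted p = 0.012), with library size alone (0.0347), with no filter on low counts (0.0271), and without control replicate 3 (0.0208) or PELP1-KD replicate 2 (0.0427). ZNF275 (−0.70), SLC6A8 (−0.57) and L1CAM (−1.75) fell, and larger changes lay farther off, in ARHGAP4 at 398 kb (−2.55, SE 0.11) and RENBP at 426 kb (2.64, SE 0.20). The rarer PLXNB3, at 255 kb, fell from 16.3 ± 2.01 to 1.79 ± 0.703 normalized reads (−3.12, SE 0.52). No neighbour of BGN named here had as large a log2 fold change, but BGN was chosen from this contrast, so nothing is read from that.

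At the FMOD and PRELP locus on chromosome 1, 5 of 15 tested neighbours rose and 6 fell. BTG2, at 31.0 kb, rose from 935 ± 27.9 to 1088 ± 38.1 normalized reads (SD, n = 3; log2 fold change 0.22, SE 0.05, adjusted p = 0.00172 by edgeR), and ATP2B4, at 135 kb, by 0.52 (SE 0.06). ADORA1, an adenosine receptor at 173 kb, rose from 11 ± 1.46 to 144 ± 8.24 (3.70, SE 0.20, adjusted p = 4.67e-12 by edgeR), and CHI3L1, a secreted chitinase-like protein at 154 kb, rose by 0.68 (SE 0.11). OPTC, a class III gene of the family 2.79 kb from PRELP, had no read, as PRELP itself. At the LUM locus on chromosome 12 all 3 neighbours had no read. At the OGN, OMD and ASPN locus on chromosome 9, 1 of 10 tested neighbours rose and 4 fell. CENPP, whose span overlaps the 3 unread genes, had 275 ± 16.0 and 295 ± 20.5 normalized reads (0.10, SE 0.09, adjusted p = 0.33 by edgeR), counted over all its exons. NOL8, the nearest tested gene on the side of OGN, at 58.4 kb, had a log2 fold change of −0.02 (adjusted p = 0.808 by edgeR). IPPK fell (−0.34, SE 0.08), and ZNF484 was called higher (0.33, SE 0.13, adjusted p = 0.0324 by edgeR), a call lost under DESeq2 (0.129) and without control replicate 1 (0.0508), control replicate 2 (0.14), PELP1-KD replicate 1 (0.0907) or PELP1-KD replicate 3 (0.0579).

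**Figure D5:**
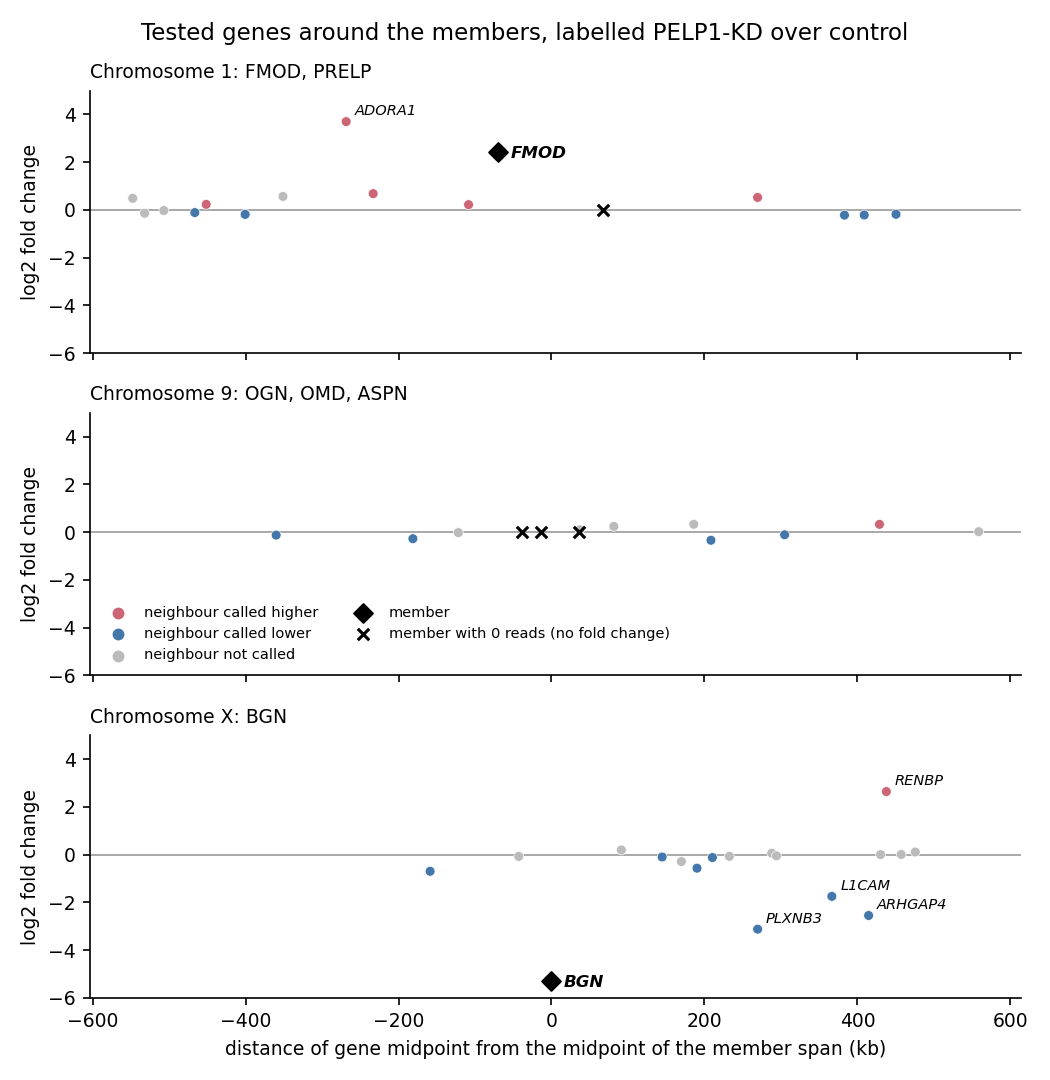
Each panel is 1 of the 3 loci with tested neighbours, with the distance of each gene's midpoint from that of the locus in kb on the horizontal axis and the log2 fold change, PELP1-KD over control, on the vertical axis. Diamonds are the genes among the 9 that passed the filter, and crosses are those of the 9 without a read. Neighbours are red or blue where called higher or lower and grey otherwise. The neighbours of BGN nearest to it lie at −0.07 and 0.19, far from BGN at −5.30, and at the FMOD locus ADORA1 lies at 3.70, above FMOD at 2.42.

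The genes whose levels followed that of BGN most closely over the 6 libraries were sought among the 11984 tested genes whose higher group averaged 100 normalized reads or more. The 5 with the largest Pearson correlation of log2 CPM were PDCD10, RELN, C16orf73, NUDT3 and VSNL1, the first at 1.00 and the others at 0.999. All 6 points of such a correlation fall in 2 groups, which gives a high value for any gene that differs strongly between them, so it is a description only. All 5 were lower in PELP1-KD, with log2 fold changes from −3.91 for RELN, a secreted glycoprotein (5198 ± 75.7 to 347 ± 15.1 normalized reads, SD, n = 3), to −0.71 for NUDT3. None had as large a fold change as BGN, which was chosen from this contrast, so that order is a description only.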

How the data were processed

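The RNA-seq data cover Hep3B cells in 3 control and 3 PELP1-KD libraries, grouped by their labels. The authors deposited estimated counts per gene, 1 table per library, without normalization. Per the file headers, featureCounts 1.5.0-p1 counted exons by strand (setting 2) on hg19 with a minimum mapping quality of 2, and shared reads that matched several places or genes as fractions. The labels name HISAT2 and the paper's methods TopHat2 and HTSeq, so the aligner is uncertain.

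The estimated counts were rounded. Of 23228 genes, 14537 passed edgeR's filterByExpr. Fold changes and adjusted p-values came from edgeR 4.0.16 (R 4.3.3, TMM, robust glmQLFit, glmQLFTest, two-sided) with Benjamini-Hochberg adjustment over these genes and calls at 0.05. Standard errors were obtained by dividing the size of the log2 fold change by the root of its F statistic. Where the change is large and a group holds few reads, this value can fall below the counting error alone. It does so for BGN, PRG4, ADORA1, PLXNB3 and XYLT1, among others, so their standard errors are too small. The median standard error over all tested genes was 0.063. Normalized reads are reads divided by the library's TMM size, itself taken relative to the geometric mean of the 6 sizes. RPKM used the same sizes and the exon lengths of the tables.

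The members and lists were chosen with earlier results of these data known. Genes named were the members, PELP1, in each list up to 3 called genes with the smallest p in each direction whose higher group averaged 100 normalized reads or more, at each locus the nearest tested genes and up to 2 called genes with the largest change, and the 5 genes most like BGN. A further 36 genes were named after their values had been seen, chosen for a role in the text: DSEL, CHST6, CHST11, CHST13, CHST14, CHST15, XYLT1, XYLT2, FAM20B, B3GALT6, TLR2, CD14, MYD88, PYCARD, INSR, LRP1, ERBB2, MET, BMP1, MMP14, TIMP1, COL5A2, COL6A1, COL6A2, LOX, FN1, FBLN1, COL18A1, CSPG5, CHADL, PODN, CENPP, ZNF275, SLC6A8, L1CAM and PLXNB3.

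The same replicate numbers in both groups come from the labels. Deviations from the group mean were correlated over 6370 genes with log2 CPM above 5 (across genes, hence not over independent replicates). Same-numbered libraries gave 0.336, 0.247 and 0.666. Differently numbered libraries gave −0.569 to 0.418, the highest for control replicate 2 with PELP1-KD replicate 1. The values set replicate 3 apart in both groups but do not pair replicates 1 and 2 by number. The main fit held no block, and pairing by number was used only in the alternative with the replicate block. Replicates differed by more than sampling noise (chi-square per degree of freedom from 1.92 to 6.76). Alternatives were DESeq2's size factors or library size alone in edgeR, DESeq2 1.42.0, unrounded counts, no filter, at least 10 reads in every library, a 2-fold threshold, a 250 kb window, the replicate block, and each library left out. The scripts were tested on simulated data before use.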

Additional observations from a re-analysis of the deposited data

How the results depend on the processing

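Under the alternatives run, the log2 fold changes of the members moved by less than the spread between replicates. With single libraries left out they ran from −5.38 to −5.18 for BGN, from 0.82 to 0.97 for LUM and from 2.36 to 2.5 for FMOD. PELP1 passed the test at −0.083 with the replicate block and ran from −0.10 to −0.040 with single libraries left out. Of 95 other named genes, 86 kept call and direction under each of the 13 alternatives in which they were tested. The replicate block changed the call of 1 of them, FAM58A. NOL8, beside the unread genes of chromosome 9, had a log2 fold change of −0.02 that turned to 0.000483 with library size alone and ran from −0.041 to 0.014 with single libraries left out (0.014 without control replicate 2).

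Among the other genes of the family, 0 were called higher with DESeq2's size factors, with DESeq2, at 2-fold and with every library required to hold 10 reads, and 0 were called lower with DESeq2 and with at least 10 reads, against 2 lower without a filter. Both counts ran from 0 to 1 with single libraries left out. At 2-fold, the counts higher and lower were 3 and 2 for glycosaminoglycan synthesis, 2 and 3 for receptors, 1 and 3 for proteases, and 3 and 1 for collagens and matrix, and 1 other proteoglycan was higher. Other proteoglycans also had 1 higher with DESeq2 and with at least 10 reads, and 1 to 2 with single libraries left out. Proteases had 3 to 6 lower, 3 of them without control replicate 2. Neighbours within 250 kb had 4 higher and 7 lower, and those within 500 kb had 11 to 15 lower with single libraries left out, 11 without control replicate 3. At 2-fold the neighbours had 2 higher and 3 lower. The cause of these changes was not tested, other than that the stricter settings admit fewer genes. Depth limits DCN and EPYC, with at most 8 reads in a library, and the 4 genes without a read.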
